A study of Mus musculus with 12 samples.

Results

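The genes described here are 10 transport genes of the kidney's proximal tubule that handle sodium, phosphate, bicarbonate and water, chosen by name: Slc34a1, Slc34a3, Slc20a1, Slc20a2, Slc9a3, Slc4a4, Slc17a1, Slc17a3, Aqp1 and Car4. All 10 were found among the 57490 genes counted, and all 10 were among the 17431 genes with enough counts to be tested. Kidney mRNA of 12 male mice was sequenced at an age of 13 weeks, with 4 mice in each of 3 groups. The diabetic mice were BKS.Cg-Dock7m +/+ Leprdb/JNju (db/db) animals, in which the Lepr mutation removes the signalling form of the leptin receptor, and they were enrolled only if their random blood glucose was high. The Model group was db/db mice given purified water by gavage, and the YHY group was db/db mice given a water extract of Yiqi Huoxue Yangyin Decoction, a formula of botanical drugs, once daily for 4 weeks at 6.24 g/mL. The Ctrl group was non-diabetic mice given purified water, which the protocol calls db/+ heterozygotes and the genotype label calls wild type (db/m). The tissue was labelled as whole kidney, whereas the design text names renal cortex, and the paper's text, which gives doses per kg, does not name the dose that was sequenced. Model against Ctrl asks what accompanies the db/db genotype, YHY against Model asks what accompanies the treatment, and YHY against Ctrl sets the treated db/db mice beside non-diabetic ones. Model mice serve in 2 of these comparisons, as do Ctrl mice and YHY mice, so the comparisons are not independent of each other.

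The proximal tubule takes back most of the filtered sodium, phosphate, bicarbonate and water. Apical carriers bring sodium in together with phosphate or in exchange for protons, carbonic anhydrase turns the secreted protons and filtered bicarbonate into carbon dioxide and water, and a basolateral cotransporter returns bicarbonate to the blood. Parathyroid hormone and FGF23 with its coreceptor Klotho lower phosphate uptake by withdrawing the phosphate carriers from the brush border, and water follows the solutes through aquaporin channels.

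Each gene was matched by its symbol in the deposited table, whose coordinates are printed as the authors' file gives them (the submitters' processing notes list GRCm39). Slc34a1 (ENSMUSG00000021490, chromosome 13, 55546000 to 55563405) and Slc34a3 (ENSMUSG00000006469, chromosome 2, 25118910 to 25124376) encode the sodium-phosphate cotransporters NaPi-IIa and NaPi-IIc of the brush border. Slc20a1 (ENSMUSG00000027397, chromosome 2, 129040684 to 129053536) and Slc20a2 (ENSMUSG00000037656, chromosome 8, 22966804 to 23059628) encode the more widely expressed phosphate carriers PiT-1 and PiT-2. Slc17a1 (ENSMUSG00000021335, chromosome 13, 24051733 to 24079713) and Slc17a3 (ENSMUSG00000036083, chromosome 13, 24023417 to 24044699) lie next to each other on the plus strand and encode NPT1 and NPT4, first described as phosphate carriers and now known for carrying urate and other organic anions. Slc9a3 (ENSMUSG00000036123, chromosome 13, 74269576 to 74317561) encodes the apical sodium-proton exchanger NHE3. Slc4a4 (ENSMUSG00000060961, chromosome 5, 89034345 to 89387512) encodes the basolateral sodium-bicarbonate cotransporter NBCe1. Car4 (ENSMUSG00000000805, chromosome 11, 84848612 to 84856870) encodes a membrane-anchored carbonic anhydrase, and Aqp1 (ENSMUSG00000004655, chromosome 6, 55313417 to 55325540) encodes the water channel of proximal tubule and thin descending limb. Slc34a1, Slc9a3, Slc17a1 and Slc17a3 thus share chromosome 13.

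RefSeq promoter sequence on GRCm38.p6 was found for 9 of the 10 genes, all but Slc20a2, and the 200 bases before the transcription start are shown for 6 of them, because the results below turn on these genes: Slc17a1, Slc17a3 and Car4 had the largest decreases in Model, Slc20a1 and Slc9a3 were the members with a higher level in YHY than in Ctrl at an adjusted P under 0.05 with the main scaling, and Slc34a1 is the most abundant. The windows are chr13:55399448-55399647 (Slc34a1), chr2:129198573-129198772 (Slc20a1), chr13:74121213-74121412 (Slc9a3), chr13:23868818-23869017 (Slc17a1), chr13:23839234-23839433 (Slc17a3) and chr11:84957554-84957753 (Car4), all on the plus strand and written 5′ to 3′, with the first of 2 listed starts used for Slc20a1 and for Slc17a1. Capitals mark the motif GTTAAT (or ATTAAC, its other strand) and the palindromes GTTAAC and CACGTG, which do not overlap one another in these windows.
Slc34a1: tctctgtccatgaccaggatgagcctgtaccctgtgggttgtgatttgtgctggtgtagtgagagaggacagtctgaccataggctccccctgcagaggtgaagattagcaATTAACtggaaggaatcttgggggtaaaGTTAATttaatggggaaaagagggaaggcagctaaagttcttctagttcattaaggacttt
Slc20a1: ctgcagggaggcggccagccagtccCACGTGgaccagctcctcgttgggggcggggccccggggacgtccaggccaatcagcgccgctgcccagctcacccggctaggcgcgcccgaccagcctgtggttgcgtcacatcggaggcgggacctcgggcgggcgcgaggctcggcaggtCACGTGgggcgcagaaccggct
Slc9a3: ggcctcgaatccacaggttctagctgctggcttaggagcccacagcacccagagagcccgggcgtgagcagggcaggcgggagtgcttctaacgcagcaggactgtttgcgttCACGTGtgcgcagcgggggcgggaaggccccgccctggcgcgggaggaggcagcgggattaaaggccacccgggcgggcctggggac
Slc17a1: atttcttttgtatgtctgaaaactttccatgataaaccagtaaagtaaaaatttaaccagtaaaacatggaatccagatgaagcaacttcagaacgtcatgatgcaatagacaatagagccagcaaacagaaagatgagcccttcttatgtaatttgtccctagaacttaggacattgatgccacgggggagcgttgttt
Slc17a3: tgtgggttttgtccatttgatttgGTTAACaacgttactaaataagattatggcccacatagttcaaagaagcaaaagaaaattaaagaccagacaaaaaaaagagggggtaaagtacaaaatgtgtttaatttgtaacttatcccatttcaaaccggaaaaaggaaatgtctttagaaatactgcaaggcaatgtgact
Car4: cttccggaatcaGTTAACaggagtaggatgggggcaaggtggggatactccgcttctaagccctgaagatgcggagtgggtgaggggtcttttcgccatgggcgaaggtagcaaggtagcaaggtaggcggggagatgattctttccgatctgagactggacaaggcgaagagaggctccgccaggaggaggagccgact

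Both strands were searched for these motifs and for TATAAA and GGGCGG. Among 32851 windows of 200 bases, GTTAAT was in 5.06%, GTTAAC in 2.03%, CACGTG in 5.26%, TATAAA in 9.96% and GGGCGG in 31%. Slc34a1 held GTTAAT at 89 (minus strand) and 61 bases (plus strand) before the start, counted to the first base of the motif. Slc17a3 held GTTAAC 176 bases and Car4 188 bases before the start, and the Slc17a1 window held none of the motifs. Slc20a1 held CACGTG at 175 and 22 bases and Slc9a3 at 87 bases before the start, and both held GGGCGG as well. The second listed start of Slc20a1, whose window is not printed, had no CACGTG and 52% G and C. GGGCGG was the only motif found in the windows of Slc4a4 and Aqp1. TATAAA was in no window of these genes. The bases G and C made up 75% of the Slc20a1 window and 69.5% of the Slc9a3 window, against 33% for Slc17a3, 37.5% for Slc17a1, 46% for Slc34a1 and 57.5% for Car4, with a median of 53% over all windows. These matches describe the letters of the windows, and binding was not measured.

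The 12 libraries held from 24415658 to 33276634 counts each. The 10 genes together took 0.470% to 0.534% of the counts in Ctrl mice, 0.259% to 0.332% in Model mice and 0.173% to 0.323% in YHY mice. These totals include transcripts of the mitochondrial genome, so a larger mitochondrial share by itself lowers these percentages. Transcripts of the mitochondrial genome took 18.4% to 22.7% of the counts in Ctrl, 41.2% to 58.9% in Model and 53.8% to 64.6% in YHY (95% Wilson intervals at most 0.0396 points wide, counting error only), and the part of this difference in the results was not tested. Levels are therefore given as CPM, for which each library size was scaled by edgeR's TMM method, unless another scale is named. A few mice stood apart in these genes. Ctrl 4 was the lowest of its group in 7 of the 10 genes and the highest in 2, Ctrl 2 was the highest in 6, YHY 1 was the lowest of its group in 5 and YHY 4 the highest in 5. Model 4 was the lowest of its group in 5 and the highest in 4, and Model 1 the lowest in 4 and the highest in 4. Model 1 also had the lowest mitochondrial share of the db/db mice. Where leaving out 1 mouse changed a call among the 10 genes, the value without it is given.

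Lists of cell type markers were read first, because most of these genes are known from the proximal tubule, though not from it alone, and bulk tissue cannot tell fewer cells of a type from less RNA per cell. The 10 proximal tubule markers, of which Slc27a2 was the most abundant, summed to 7532, 9540, 7998 and 5951 CPM in Ctrl 1 to 4, 5598, 5093, 5427 and 4109 CPM in Model 1 to 4, and 2604, 3940, 2888 and 4809 CPM in YHY 1 to 4. Every Model mouse thus lay below every Ctrl mouse, while Model and YHY overlapped. By edgeR's quasi-likelihood test, 3 of the 10 markers were lower and 0 higher in Model than in Ctrl, 2 lower and 0 higher in YHY than in Model, and 8 lower and 1 higher in YHY than in Ctrl. Of all genes, 18.5%, 7.62% and 24.2% were lower in the same order. In Model against Ctrl, 6 markers were lower with library size alone and 2 with upper-quartile scaling. DESeq2 called 5 lower in YHY than in Model. The 4 markers of the S3 segment, the last stretch of the proximal tubule, with Slc7a13 the most abundant, summed to 1573, 1511, 1602 and 1025 CPM in Ctrl 1 to 4, 180, 139, 173 and 213 CPM in Model 1 to 4, and 85.1, 147, 68.9 and 82.6 CPM in YHY 1 to 4. All 4 were lower in Model and in YHY than in Ctrl, with median log2 fold changes of −4.00 and −4.25, and 1 was higher and 1 lower in YHY than in Model. With scaling to the proximal tubule markers 3 were lower in each comparison with Ctrl, and 2 were higher and 0 lower in YHY than in Model. Of all 17431 genes, that scaling called 6355 higher and 569 lower in Model against Ctrl. It called 3969 and 188 in YHY against Model, and 11338 and 510 in YHY against Ctrl. No proximal tubule or S3 marker was at 0 in any mouse.

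Markers of later nephron segments also differed between the groups. The 5 markers of the thick ascending limb, led by Slc12a1, summed to 2720, 1803, 3213 and 3074 CPM in Ctrl 1 to 4, 1592, 1281, 1119 and 1498 CPM in Model 1 to 4, and 1854, 1420, 2878 and 1627 CPM in YHY 1 to 4, and 4 of 5 were lower in Model and in YHY than in Ctrl, with 0 called for YHY against Model. In YHY against Ctrl, 3 were lower with DESeq2, 2 with upper-quartile scaling and 4 with library size alone. Scaling to the proximal tubule markers gave 1 lower in Model than in Ctrl, and 2 higher and 0 lower in YHY than in Ctrl. In YHY against Model, 3 were higher with that scaling and 2 with DESeq2. The 6 markers of collecting duct principal cells, led by Aqp2, summed to 968, 649, 671 and 1555 CPM in Ctrl 1 to 4, 555, 320, 390 and 388 CPM in Model 1 to 4, and 756, 292, 441 and 248 CPM in YHY 1 to 4. Ctrl 4 stood highest here, as it did for Aqp1. Of the 5 tested, 3 were lower in Model and in YHY than in Ctrl and 0 were called for YHY against Model, and Avpr2 was at 0 in 5 mice. Scaling to the proximal tubule markers gave 2 lower in Model than in Ctrl, and 2 higher and 0 lower in YHY than in Ctrl. In YHY against Model, 2 were higher with that scaling and 2 with DESeq2. The counts with the marker scaling in both lists are to be read beside those of all genes given above, most of which were higher in YHY than in Ctrl.

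The other lists are given by their group ranges of summed CPM. Distal convoluted and connecting tubule markers (5, led by Slc12a3) ran from 354 to 629 in Ctrl, 747 to 862 in Model and 423 to 903 in YHY, with 2 called higher and 0 called lower for Model against Ctrl, 0 and 1 for YHY against Model, and 2 and 1 for YHY against Ctrl. Intercalated cell markers (5, led by Atp6v1g3) ran from 148 to 216, 136 to 242 and 110 to 157, with 0 higher and 1 lower in each comparison. Podocyte markers (5, led by Podxl) ran from 107 to 147, 100 to 250 and 74.1 to 153, with 2 higher and 0 lower, 0 and 0, and 3 and 1 in the same order of comparisons. The thin limbs of the loop of Henle, the parietal cells and the urothelium had no list. Endothelial markers (6, led by Plvap) ran from 229 to 313, 283 to 363 and 268 to 425, with 2 higher and 0 lower, 0 and 0, and 2 and 0. Stromal and smooth muscle markers (4, led by Acta2) ran from 106 to 166, 135 to 193 and 113 to 216, with 1 higher and 0 lower, 0 and 0, and 1 and 0. Leukocyte markers (5, led by Lyz2, with Cd3e at 0 in 4 mice) ran from 87.6 to 136, 136 to 212 and 145 to 406, and of the 4 tested 1 was higher and 1 lower, 0 and 0, and 2 and 1. Each of these 3 lists overlapped between YHY and Model. Erythroid markers (4, led by Hba-a1) ran from 303 to 673, 269 to 475 and 322 to 1055, with 1 higher and 2 lower, 1 and 0, and 2 and 0. Tubular injury markers (5, led by Spp1) ran from 564 to 829, 599 to 1213 and 646 to 1066, with 0 higher and 1 lower, 1 and 0, and 0 and 1. Adipocyte markers (3) summed to at most 0.572 CPM in any mouse, with all 3 at 0 in some, and none was tested. The part of any of these cell types in the results for the 10 genes was not tested.

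**Figure D1:**
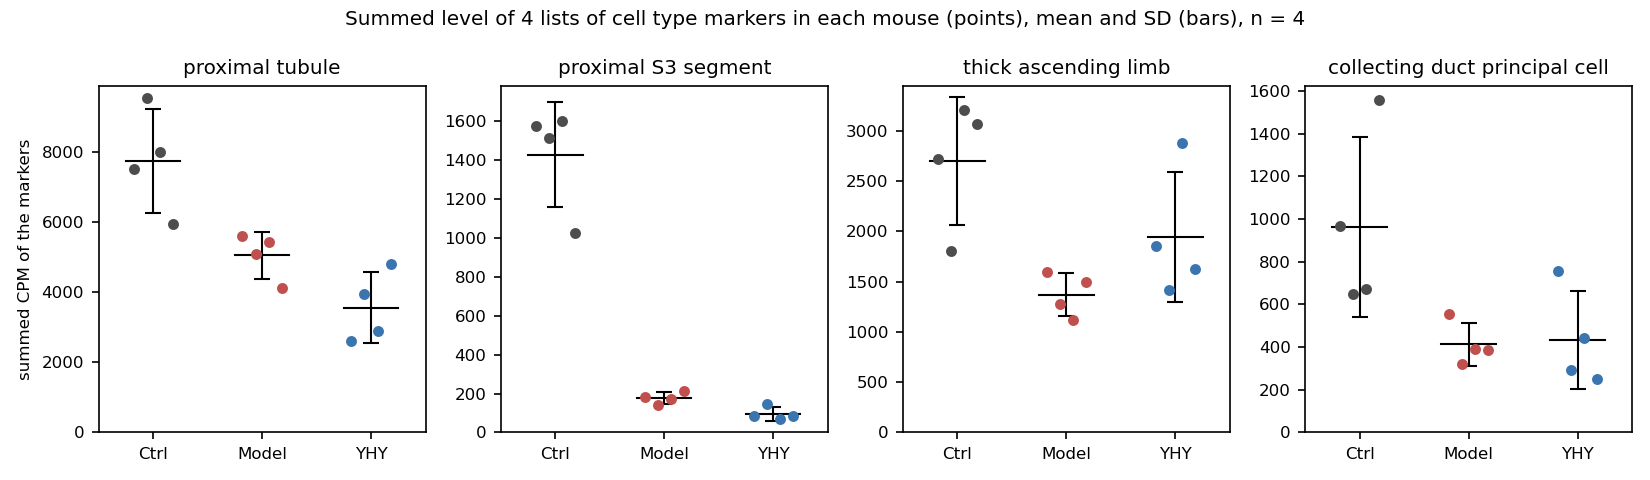
Summed CPM of the markers of 4 nephron segments in each mouse (points), with mean and SD (bars) of 4 mice per group. Every Model mouse lies below every Ctrl mouse in each of the 4 panels, most widely for the S3 segment, where the highest Model mouse has 213 CPM and the lowest Ctrl mouse 1025.

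Levels can be compared between genes only per length, so the order of the 10 genes was read in FPKM, the CPM divided by the gene length in kilobases. In Ctrl, Slc34a1 had the highest level at 437 ± 122 FPKM, followed by Aqp1 at 280 ± 82.7 and Slc17a1 at 185 ± 29.3 (SD, n = 4 mice). Below them came Car4 at 59.4 FPKM, Slc17a3 at 53.7, Slc4a4 at 28.5, Slc9a3 at 13.8, Slc34a3 at 5.80, Slc20a1 at 3.93 and Slc20a2 at 3.89. Neighbours in this order were separated without overlap between mice at 4 steps, between Slc17a1 and Car4, Slc17a3 and Slc4a4, Slc4a4 and Slc9a3, and Slc9a3 and Slc34a3. The other 5 steps overlapped. In Model, Slc34a1 was at 455 FPKM, Aqp1 at 146, Slc17a1 at 50.1, Slc17a3 at 22.5, Car4 at 19.2, Slc4a4 at 18.3, Slc9a3 at 16.6, Slc34a3 at 11.7, Slc20a1 at 6.88 and Slc20a2 at 5.42, and only the first 3 steps were free of overlap. In YHY, Slc34a1 was at 397 ± 174 FPKM (SD, n = 4 mice), Aqp1 at 79.7, Slc17a1 at 57.0, Slc9a3 at 22.4, Slc17a3 at 16.4, Car4 at 15.1, Slc20a1 at 10.4, Slc4a4 at 9.36, Slc34a3 at 6.33 and Slc20a2 at 3.86. There, Slc34a1 stood above Aqp1 and Slc17a1 above Slc9a3 without overlap. Slc9a3 thus moved from place 7 in Ctrl and Model to place 4 in YHY, and Slc4a4 from place 6 to place 8.

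A gene was called higher or lower at a P under 0.05 after Benjamini-Hochberg adjustment over the 17431 genes, from edgeR's quasi-likelihood test. Relative to the Ctrl group, 2 of the 10 genes were higher in the Model group, where 19.6% of all genes were, and 4 were lower, where 18.5% were. The count of higher genes is therefore near that of all genes, and the count of lower genes is above it. The median log2 fold change of the 10 genes was −0.29, against 0.04 over all genes. At the limits in the paper's methods, a fold change over 1.2 with an unadjusted P under 0.05, 6 of the 10 passed, against 46.9% of all genes. The 6 called genes were Slc20a1 and Slc20a2, which were higher, and Slc17a1, Slc17a3, Car4 and Aqp1, which were lower. The count was 4 with scaling by library size alone, with 0 higher and 4 lower, where 1547 of the 17431 genes were higher and 5667 lower. It was 7 with scaling to the proximal tubule markers, with 5 higher and 2 lower, where 6355 of all genes were higher and 569 lower. These scalings moved the median log2 fold change of all genes from 0.04 to −0.39 and 0.63, and upper-quartile scaling moved it to 0.14. The median of the 10 genes moved with it, to −0.685, 0.32 and −0.19, and so changed sign with the marker scaling. Values and calls given above and below with the marker scaling carry the shift of all genes. Measured from the median of all genes, each member's log2 difference varied by at most 0.106 between these scalings, TMM, DESeq2's size factors and TMM without mitochondrial transcripts. The same range was at most 0.141 in YHY against Model and 0.15 in YHY against Ctrl. Scaling moves all genes by nearly the same amount, so these ranges are small by construction and do not measure how firm a difference is.

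Between the YHY and Model groups, edgeR called 0 of the 10 genes, against 5.63% of all genes called higher and 7.62% called lower. At an unadjusted P under 0.05 there were 4, Slc20a2, Slc9a3, Slc4a4 and Aqp1, which also passed the limits in the methods (1 higher and 3 lower, against 28.6% of all genes). DESeq2 called 3 of them, Slc20a2, Slc9a3 and Aqp1. The median log2 fold change of the 10 genes was −0.40, against 0.02 over all genes, and scaling to the proximal tubule markers moved these to 0.15 and 0.59, with the sign of the first changed. Whether any gene was called depended on single mice. Without YHY 4 there were 3 calls, 1 higher and 2 lower, in a fit that called 1045 of 17743 genes higher and 1678 lower. Without Model 4, YHY 1 or YHY 3 there was 1 call each, where 600 of 18017, 869 of 17973 and 934 of 17992 genes were higher and 1069, 1005 and 1104 lower.

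Relative to the Ctrl group, 2 of the 10 genes were higher in the YHY group, where 26.1% of all genes were, and 5 were lower, where 24.2% were. The 2 were Slc20a1 and Slc9a3, and the 5 were Slc4a4, Slc17a1, Slc17a3, Aqp1 and Car4. All 7 passed the limits in the methods, which 56% of all genes passed. The 4 mice of each group did not overlap in any of the 7, but such separation was not counted over all genes. The median log2 fold change of the 10 genes was −0.87, against 0.10 over all genes. Upper-quartile scaling moved the all-gene median to 0.22, library size alone to −0.33 and scaling to the proximal tubule markers to 1.25, where the median of the 10 genes changed sign to 0.19. With library size alone 6 were called (1 higher and 5 lower, against 2365 and 5977 of the 17431 genes), and with the marker scaling 8 were called (5 higher and 3 lower, against 11338 and 510 of all genes).

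**Figure D2:**
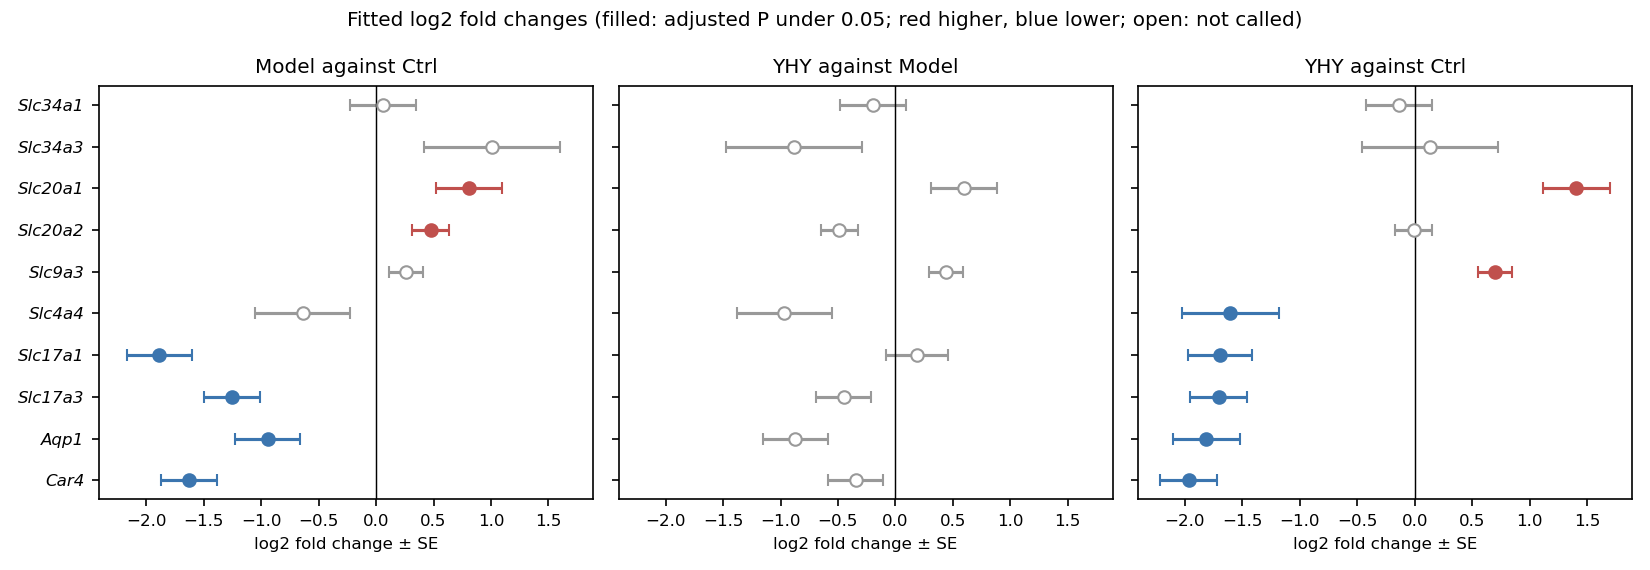
Fitted log2 fold changes of the 10 genes in the 3 comparisons (points) with their standard errors (bars), filled where the adjusted P was under 0.05. Of the 10 genes, 6 are filled for Model against Ctrl, 0 for YHY against Model and 7 for YHY against Ctrl.

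Slc34a1, the main phosphate carrier of the brush border, was at 1891, 2792, 2063 and 1419 CPM in Ctrl 1 to 4, 2074, 2256, 2386 and 1786 CPM in Model 1 to 4, and 966, 2336, 1397 and 2724 CPM in YHY 1 to 4. The groups overlapped throughout, and YHY mice spread the most, with YHY 1 and YHY 3 low and YHY 4 high. Ctrl averaged 2041 ± 570 CPM, Model 2126 ± 260 and YHY 1856 ± 814 (SD, n = 4 mice). The fitted log2 difference was 0.06 (SE 0.288) between Model and Ctrl, −0.20 between YHY and Model and −0.14 between YHY and Ctrl, with adjusted P of 0.893, 0.710 and 0.718 by edgeR, and all 3 changed sign under some setting. Between Model and Ctrl it was −0.36 with library size alone, −0.03 without Ctrl 1, −0.135 without Ctrl 4 and −0.00333 without Model 3. Between YHY and Model it was 0.255 with scaling to the proximal tubule markers and 0.02 without YHY 1. Between YHY and Ctrl it was 0.95 with that scaling (adjusted P = 0.00022), 0.05 without Ctrl 2 and 0.07 without YHY 1. That scaling also gave a call for Model against Ctrl (0.70, adjusted P = 0.00647), but it moved the medians of all genes to 0.63 for Model and 1.25 for YHY, from which Slc34a1 differed by 0.067 and −0.297. Its window of 200 bases before the start is the one printed above with GTTAAT on each strand.

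Slc34a3, the second brush border carrier of this family, was at 12.7, 19.1, 21.8 and 1.14 CPM in Ctrl 1 to 4, 38.6, 26.5, 25.6 and 19.2 CPM in Model 1 to 4, and 4.96, 10.7, 14.5 and 29.6 CPM in YHY 1 to 4. Ctrl 4 was far below the other 3 Ctrl mice, at 50 counts, and each pair of groups overlapped. The log2 difference between Model and Ctrl was 1.01 (SE 0.591, adjusted P = 0.192) and was 0.58 without Ctrl 4 (adjusted P = 0.304). With no filter on low counts the same comparison was called (0.99, adjusted P = 0.0343), as it was with scaling to the proximal tubule markers (1.70, adjusted P = 0.00911). Between YHY and Model the difference was −0.88 (adjusted P = 0.352), from −1.46 to −0.59 leaving out each mouse in turn and −0.44 with the marker scaling, called in none of these. Between YHY and Ctrl it was 0.13 (adjusted P = 0.872), and it was −0.33 without Ctrl 4, −0.445 without YHY 4 and −0.28 with library size alone. With scaling to the proximal tubule markers it was 1.26 (adjusted P = 0.0268), which is 0.01 from the median of all genes under that scaling.

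Slc20a1, encoding PiT-1, was at 22.7, 25.0, 18.4 and 21.5 CPM in Ctrl 1 to 4, 22.7, 36.1, 40.9 and 53.8 CPM in Model 1 to 4, and 38.7, 96.5, 35.6 and 61.1 CPM in YHY 1 to 4. All YHY mice exceeded all Ctrl mice, Model 1 lay within the Ctrl range, and YHY 2 was the highest of the 12. Ctrl averaged 21.9 ± 2.77 CPM, Model 38.4 ± 12.9 and YHY 58.0 ± 28.1 (SD, n = 4 mice). Slc20a1 was 1.75-fold higher in Model than in Ctrl (log2 fold change 0.81, SE 0.289, adjusted P = 0.0369). This call was lost when single mice were left out, with log2 fold changes of 0.77 without Ctrl 1, 0.68 without Ctrl 3, 0.74 without Ctrl 4, 0.83 without Model 2, 0.77 without Model 3 and 0.60 without Model 4 (adjusted P from 0.0616 to 0.140), and with library size alone (0.37, adjusted P = 0.232). Slc20a1 was 2.65-fold higher in YHY than in Ctrl (log2 fold change 1.40, SE 0.291, adjusted P = 0.000858), and this call held in all 12 fits that left out a mouse, between 1.04 and 1.57, and was 2.48 with the marker scaling (adjusted P = 2.09e-06). The difference between YHY and Model was 0.59 (adjusted P = 0.185), from 0.234 without YHY 2 to 0.799 without Model 4 (adjusted P up to 0.604), and it was 1.02 with scaling to the proximal tubule markers (adjusted P = 0.0239). Of the genes that overlap Slc20a1 on the opposite strand, Gm56350 reached at most 2.00 CPM and 9830144P21Rik at most 1.28 CPM. Whether the counting used the strand of the reads is not given in the sources used here. How many reads Slc20a1 shared with these genes is not known, so its counts are uncertain to that extent. Its promoter window, printed above, holds CACGTG at both ends.

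Slc20a2, encoding PiT-2, was at 25.1, 21.1, 23.5 and 27.1 CPM in Ctrl 1 to 4, 29.7, 32.5, 38.9 and 33.6 CPM in Model 1 to 4, and 17.3, 23.4, 28.1 and 27.3 CPM in YHY 1 to 4. The Model mice lay above all mice of both other groups, which overlapped each other. Slc20a2 was 1.39-fold higher in Model than in Ctrl (log2 fold change 0.48, SE 0.161, adjusted P = 0.0283). The call was lost without Ctrl 1 (0.445), Ctrl 2 (0.41), Ctrl 3 (0.41), Model 2 (0.49), Model 3 (0.40) or Model 4 (0.48), with adjusted P from 0.0517 to 0.0973, and it was lost with library size alone (0.03, adjusted P = 0.927) and with no filter (0.45, adjusted P = 0.0575). Between YHY and Model the log2 difference was −0.49 (SE 0.161, unadjusted P = 0.00813, adjusted P = 0.0571 by edgeR's quasi-likelihood test), and 0.05 with scaling to the proximal tubule markers. It was called by DESeq2 (adjusted P = 0.0338), and by edgeR without YHY 3 (−0.58, adjusted P = 0.0424) or without YHY 4 (−0.56, adjusted P = 0.0409). Between YHY and Ctrl it was −0.01 (adjusted P = 0.962), with the sign changed by upper-quartile scaling (0.11) or by leaving out YHY 1 (0.115), and with a call at 1.10 under the proximal tubule marker scaling (adjusted P = 0.00104).

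Slc20a2 shares its stretch of chromosome 8 with Gm17491, a long non-coding RNA on the same strand, and with Smim19 on the opposite strand. Gm17491 was at 6.17, 9.11, 6.37 and 5.05 CPM in Ctrl 1 to 4, 19.4, 50.5, 47.5 and 46.4 CPM in Model 1 to 4, and 30.6, 36.4, 43.7 and 39.3 CPM in YHY 1 to 4. All db/db mice exceeded all Ctrl mice in this overlapping gene, whereas for Slc20a2 only the Model mice lay apart from the Ctrl mice. Smim19 averaged 25.1 CPM in the Ctrl mice, 18.1 CPM in the Model mice and 14.1 CPM in the YHY mice. How many reads were shared between these genes is not known, so the Slc20a2 values are uncertain to that extent.

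Per length, Slc34a1 made up 96.4% to 97.4% of the summed FPKM of the 4 sodium-phosphate carriers in Ctrl mice, 94.3% to 95.5% in Model mice and 94.6% to 95.4% in YHY mice. The Ctrl mice lay above all db/db mice in this share. Slc20a1 held a mean of 0.915% in Ctrl, 1.48% in Model and 2.57% in YHY, Slc34a3 held 1.196%, 2.44% and 1.46%, and Slc20a2 held 0.936%, 1.14% and 1.04%. The plot of the 10 genes by mouse shows these carriers beside the other 6 genes, each on its own axis.

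**Figure D3:**
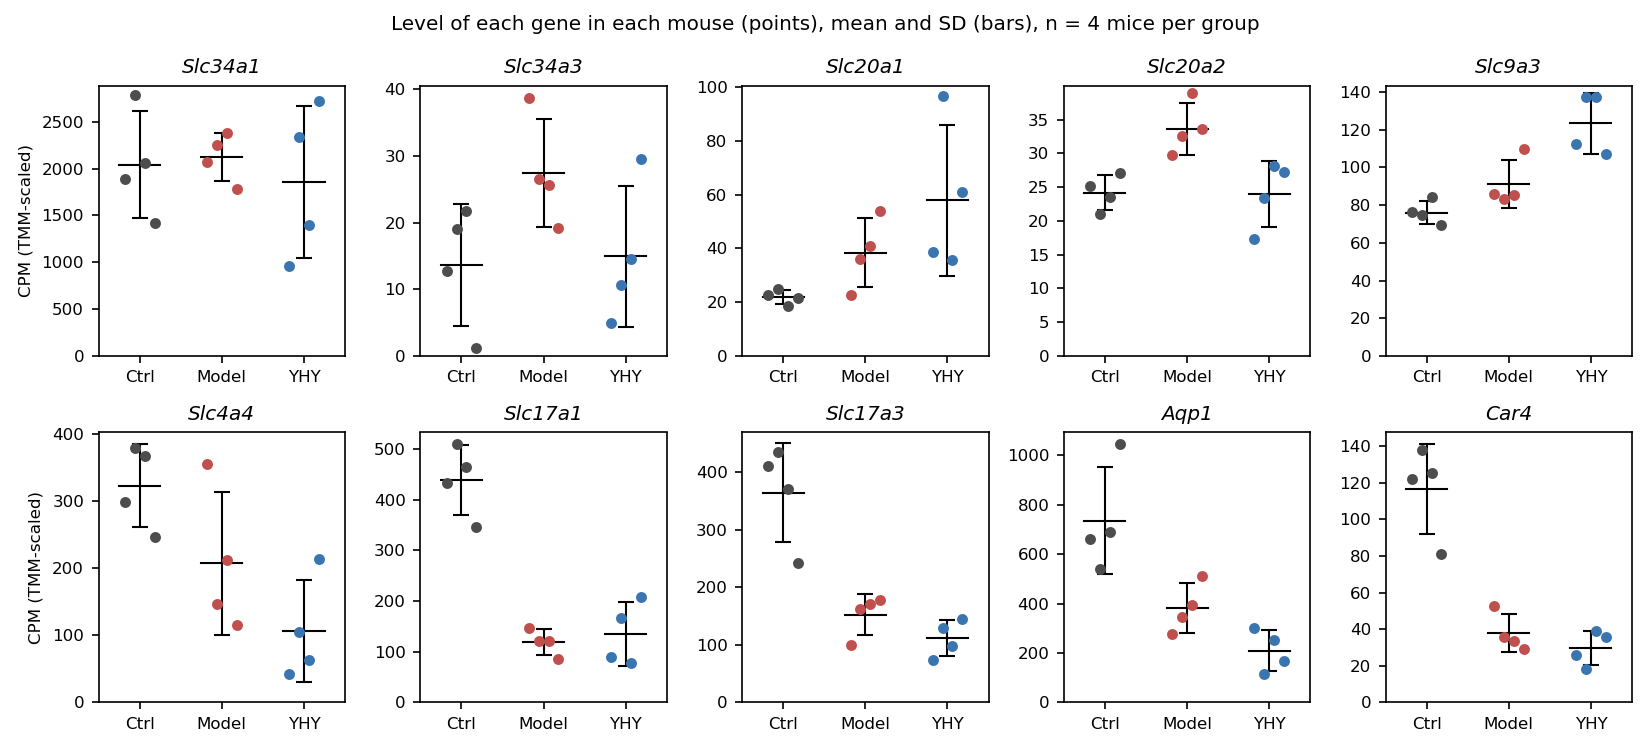
CPM of the 10 genes in each mouse (points), with mean and SD (bars) of 4 mice per group. Slc17a1, Slc17a3, Aqp1 and Car4 are lower in every Model and YHY mouse than in any Ctrl mouse, while Slc34a1 overlaps between all groups.

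Slc17a1, encoding NPT1, was at 434, 511, 464 and 346 CPM in Ctrl 1 to 4, 147, 122, 120 and 85.2 CPM in Model 1 to 4, and 88.7, 167, 77.5 and 208 CPM in YHY 1 to 4. Every db/db mouse lay below every Ctrl mouse, and Model and YHY overlapped. It was 3.69-fold lower in Model (log2 fold change −1.88, SE 0.281, adjusted P = 0.000117) and 3.24-fold lower in YHY (−1.70, SE 0.279, adjusted P = 0.000122) than in Ctrl. Leaving out each mouse in turn gave −2.07 to −1.76 and −1.99 to −1.51, called each time. Scaling to the proximal tubule markers gave smaller differences of −1.29 and −0.63, also called (adjusted P = 8.57e-05 and 0.00984). Between YHY and Model the log2 difference was 0.19 (adjusted P = 0.709), −0.10 without YHY 4, and 0.65 with scaling to the proximal tubule markers, where it was called (adjusted P = 0.0279).

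Slc17a3, encoding NPT4 and lying just before Slc17a1, was at 410, 434, 370 and 241 CPM in Ctrl 1 to 4, 99.6, 162, 170 and 177 CPM in Model 1 to 4, and 74.3, 129, 97.4 and 145 CPM in YHY 1 to 4. Ctrl again lay above both db/db groups without overlap, with Ctrl 4 the lowest of its group. The gene was 2.39-fold lower in Model (log2 fold change −1.26, SE 0.243, adjusted P = 0.000873) and 3.27-fold lower in YHY (−1.71, SE 0.246, adjusted P = 3.78e-05) than in Ctrl. Scaling to the proximal tubule markers brought the Model difference to −0.59 (adjusted P = 0.0508) and the YHY difference to −0.58 (adjusted P = 0.0349). Between YHY and Model the difference was −0.45 (adjusted P = 0.231), 0.01 with that scaling, and −0.76 in the 9 mice named in the headers of the deposited comparison tables (adjusted P = 0.0414), a set chosen after seeing the data. Slc20a2 and Slc4a4 were called in this comparison of the 9 mice as well. The header for YHY against Model repeats a YHY name and names Model columns differently from the group mean. Which mice belong to this set is therefore uncertain. The 2 neighbours of this gene cluster had little RNA, with Slc17a4 at means of 2.44, 3.96 and 3.57 CPM in Ctrl, Model and YHY and Slc17a2 at no more than 0.913 CPM in any mouse. Of the windows printed above, that of Slc17a3 holds GTTAAC and that of Slc17a1 does not.

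Slc9a3, encoding NHE3, was at 76.3, 74.6, 84.2 and 69.2 CPM in Ctrl 1 to 4, 85.7, 83.4, 85.5 and 110 CPM in Model 1 to 4, and 112, 137, 137 and 107 CPM in YHY 1 to 4. The YHY mice lay above all Ctrl mice, and Model 4 alone among Model mice reached the YHY range. Ctrl averaged 76.1 ± 6.17 CPM, Model 91.1 ± 12.6 and YHY 124 ± 16.2 (SD, n = 4 mice). Slc9a3 was 1.62-fold higher in YHY than in Ctrl (log2 fold change 0.70, SE 0.146, adjusted P = 0.000879), a call that held without any single mouse and was lost with library size alone (0.27, adjusted P = 0.276), and it was 1.88 with scaling to the proximal tubule markers (adjusted P = 5.11e-06). The difference between YHY and Model was 0.44 (SE 0.145, unadjusted P = 0.00816, adjusted P = 0.0572 by edgeR's quasi-likelihood test). It was called by DESeq2 (adjusted P = 0.0243), with mitochondrial transcripts removed (0.46, adjusted P = 0.0473), with at least 10 counts in every sample (0.45, adjusted P = 0.0401), with scaling to the proximal tubule markers (0.99, adjusted P = 0.0123), and by edgeR without Model 4 (0.54, adjusted P = 0.0375) or without YHY 4 (0.50, adjusted P = 0.0353). Between Model and Ctrl the difference was 0.26 (adjusted P = 0.171), −0.16 with library size alone, and 0.89 with the proximal tubule marker scaling (adjusted P = 0.00963). The Slc9a3 window printed above has CACGTG once and GGGCGG at 3 places.

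Slc4a4, encoding NBCe1, was at 298, 379, 367 and 247 CPM in Ctrl 1 to 4, 356, 147, 212 and 115 CPM in Model 1 to 4, and 42.3, 105, 63.6 and 214 CPM in YHY 1 to 4. Model 1 lay within the Ctrl range and the other Model mice below it, and YHY 4 reached the Model range from a group otherwise at or under 105 CPM. The gene was 3.04-fold lower in YHY than in Ctrl (log2 fold change −1.61, SE 0.42, adjusted P = 0.00468), and this was −0.61 with scaling to the proximal tubule markers (adjusted P = 0.0686). Leaving out each mouse in turn gave −2.21 to −1.35 for YHY against Ctrl, called each time. Between Model and Ctrl the difference was −0.64 (SE 0.411, adjusted P = 0.236), and it was −1.09 without Model 1 (adjusted P = 0.0457). Its value ranged from −1.09 to −0.44 over the 12 fits that left out a mouse, and was −0.07 with the marker scaling (adjusted P = 0.876). In YHY against Model it was −0.97 (SE 0.414, unadjusted P = 0.0328, adjusted P = 0.135 by edgeR's quasi-likelihood test), and it was −1.57 without YHY 4 (adjusted P = 0.00991), −0.589 without Model 1 (adjusted P = 0.388) and −0.54 with the marker scaling (adjusted P = 0.167). With no filter on low counts the latter was also called (−0.98, adjusted P = 0.0154).

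Car4, encoding carbonic anhydrase 4, was at 122, 138, 126 and 81.1 CPM in Ctrl 1 to 4, 52.7, 35.9, 33.3 and 29.3 CPM in Model 1 to 4, and 25.9, 18.5, 39.0 and 35.7 CPM in YHY 1 to 4. All 8 db/db mice lay below the lowest Ctrl mouse, Ctrl 4, and the 2 db/db groups overlapped. Car4 was 3.09-fold lower in Model (log2 fold change −1.63, SE 0.242, adjusted P = 0.000117) and 3.92-fold lower in YHY (−1.97, SE 0.245, adjusted P = 9.99e-06) than in Ctrl. Both calls held without any single mouse, between −1.89 and −1.52 and between −2.17 and −1.80, and with smaller differences of −1.01 and −0.755 with scaling to the proximal tubule markers (adjusted P = 0.00526 and 0.0168). Between YHY and Model the difference was −0.34 (adjusted P = 0.368), from −0.503 without YHY 3 to −0.134 without Model 1, and 0.26 with that scaling.

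Aqp1, the water channel, was at 663, 542, 691 and 1046 CPM in Ctrl 1 to 4, 275, 348, 394 and 513 CPM in Model 1 to 4, and 303, 115, 251 and 168 CPM in YHY 1 to 4. Ctrl lay above Model and above YHY without overlap, Ctrl 4 was the highest mouse, and only YHY 1 reached the Model range. Ctrl averaged 736 ± 217 CPM, Model 383 ± 99.7 and YHY 209 ± 83.5 (SD, n = 4 mice). Aqp1 was 1.92-fold lower in Model than in Ctrl (log2 fold change −0.94, SE 0.285, adjusted P = 0.0162), and the call was lost without Ctrl 4 (−0.78, adjusted P = 0.0527) and with scaling to the proximal tubule markers (−0.37, adjusted P = 0.476). It was 3.52-fold lower in YHY than in Ctrl (−1.81, SE 0.292, adjusted P = 1e-04), and −0.61 with that scaling (adjusted P = 0.175). The difference between YHY and Model was −0.87 (SE 0.285, unadjusted P = 0.00762, adjusted P = 0.0546 by edgeR's quasi-likelihood test). It was called by DESeq2 (adjusted P = 0.0168), with no filter (adjusted P = 0.0103) and by edgeR without YHY 1 (−1.10, adjusted P = 0.0262). It was −0.24 with scaling to the proximal tubule markers (adjusted P = 0.665). Aqp1 thus peaked in Ctrl 4, the mouse in which 7 of the 10 genes were lowest of the Ctrl group.

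Ratios of 2 of these genes within a library do not depend on its scaling. For 7 ratios in 3 comparisons, 0 of 21 passed an adjusted P of 0.05 by the two-sided exact permutation test, and 7 of 21 reached the smallest unadjusted P that 4 against 4 mice allow, 0.0286 (adjusted 0.0858), with no overlap between the groups. An adjusted P under 0.05 would have needed most of the 21 tests to reach that smallest P, so the lack of a call decides little. How often other pairs of genes separate the groups was not counted. No other tool was run on the ratios. Per length, the ratio of Aqp1 to Slc9a3 was 18.2, 15.2, 17.2 and 31.7 in Ctrl 1 to 4, 6.74, 8.74, 9.66 and 9.77 in Model 1 to 4, and 5.65, 1.76, 3.82 and 3.29 in YHY 1 to 4. The 3 groups separated without overlap, with log2 differences of −1.19 for Model against Ctrl, −1.37 for YHY against Model and −2.56 for YHY against Ctrl. The ratio of Slc20a1 to Slc20a2 was 1.01, 1.32, 0.872 and 0.884 in Ctrl 1 to 4, 0.852, 1.24, 1.17 and 1.78 in Model 1 to 4, and 2.496, 4.60, 1.41 and 2.495 in YHY 1 to 4. The YHY mice were above all Ctrl mice, by 1.32 in log2, while YHY 3 lay within the Model range.

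The ratio of Car4 to Slc4a4 was 2.36, 2.10, 1.97 and 1.89 in Ctrl 1 to 4, 0.854, 1.41, 0.908 and 1.47 in Model 1 to 4, and 3.53, 1.02, 3.53 and 0.962 in YHY 1 to 4. Model lay below Ctrl without overlap (log2 difference −0.88), and YHY split into 2 mice above and 2 below the Ctrl range. The ratio of Slc9a3 to Slc4a4 ran from 0.406 to 0.577 in Ctrl, 0.496 to 1.98 in Model and 1.03 to 5.46 in YHY, and was higher in all YHY mice than in all Ctrl mice by 2.55 in log2. The ratio of Slc34a1 to Slc34a3 ran from 47.7 to 628 in Ctrl, with Ctrl 4 at the top, 27.1 to 47.0 in Model and 46.5 to 110 in YHY. Its log2 difference between Model and Ctrl was −1.51, and −0.68 without Ctrl 4. For the neighbours Slc17a1 and Slc17a3 the ratio ran from 3.03 to 4.097 in Ctrl, 1.37 to 4.23 in Model and 2.27 to 4.08 in YHY, with overlap in every comparison. The ratio of Slc34a1 to Slc20a2 overlapped between all groups as well, at 69.7 to 176 in Ctrl, 70.7 to 92.8 in Model and 66.1 to 133 in YHY.

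**Figure D4:**
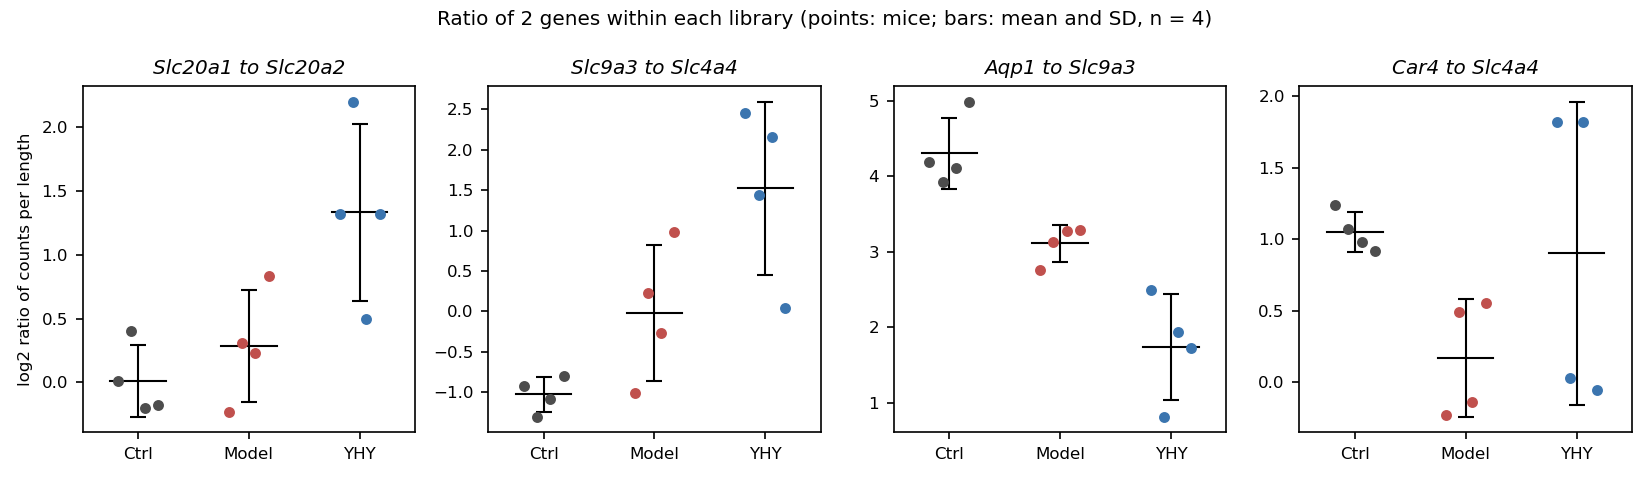
Log2 ratio of counts per length of 2 genes within each library (points), with mean and SD (bars) of 4 mice per group, for 4 of the 7 ratios. Aqp1 to Slc9a3 separates all 3 groups, at a mean log2 ratio of 4.30 in Ctrl, 3.11 in Model and 1.74 in YHY.

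Other genes of these pathways were taken from 3 lists. Over all genes, TMM gave 19.6% higher and 18.5% lower in Model against Ctrl. The shares were 5.63% and 7.62% in YHY against Model, and 26.1% and 24.2% in YHY against Ctrl. Among hormone receptors, vitamin D enzymes and scaffolds of phosphate transport, 16 of 17 genes were tested, all but Slc17a2. Among these, Model against Ctrl gave 3 higher and 5 lower (median log2 fold change 0.08), YHY against Model 0 higher and 6 lower (−0.25), and YHY against Ctrl 4 higher and 8 lower (−0.13). With scaling to the proximal tubule markers the median was 0.69, 0.25 and 1.01 in these comparisons, with the last 2 changed in sign. The calls with that scaling were 7 higher and 1 lower, 3 and 0, and 8 and 3. Of all 17431 genes it called 6355 higher and 569 lower, 3969 and 188, and 11338 and 510. DESeq2, which gave values for all 17 genes in both comparisons with Ctrl, had medians of 0.35 in each, the one for YHY changed in sign, and library size alone gave −0.37 in Model against Ctrl, beside the shift of all genes given above. Pdzk1, a scaffold that holds Slc34a1 protein in the brush border, was at 152, 131, 170 and 132 CPM in Ctrl 1 to 4, 35.2, 45.8, 39.3 and 39.5 CPM in Model 1 to 4, and 13.9, 29.9, 20.1 and 26.1 CPM in YHY 1 to 4. Its 3 groups separated without overlap, and it was called lower in Model than in Ctrl (−1.88, adjusted P = 1.06e-05), in YHY than in Model (−0.83, adjusted P = 0.0135) and in YHY than in Ctrl (−2.71, adjusted P = 1.74e-07). Cyp27b1, the enzyme that makes active vitamin D, was at 2.76, 1.50, 5.56 and 0.956 CPM in Ctrl 1 to 4, 29.8, 17.0, 26.4 and 18.9 CPM in Model 1 to 4, and 38.6, 140, 14.2 and 48.3 CPM in YHY 1 to 4. All db/db mice exceeded all Ctrl mice, with log2 fold changes of 3.09 for Model (adjusted P = 0.000813) and 4.47 for YHY (adjusted P = 2.81e-05). Leaving out each mouse in turn gave 2.76 to 3.67 for Model and 3.63 to 5.02 for YHY, called each time. The difference between YHY and Model was 1.38 (adjusted P = 0.105). It lay between 0.546 and 1.71 over the fits that left out a mouse, with a call without YHY 3 (adjusted P = 0.0311). It was also called with no filter (adjusted P = 0.00355) and with the marker scaling (1.85, adjusted P = 0.0121).

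Kl, encoding Klotho, the FGF23 coreceptor, was 1.99-fold lower in Model than in Ctrl (log2 fold change −0.99, adjusted P = 0.0247) and 2.04-fold lower in YHY than in Model (−1.03, adjusted P = 0.0476). The first call was lost without Ctrl 2 (−0.85), Model 2 (−0.91), Model 3 (−0.998) or Model 4 (−0.83), with adjusted P up to 0.0814, with replicate number as a block (adjusted P = 0.051) and with scaling to the proximal tubule markers (−0.39, adjusted P = 0.177). The second was lost in 9 of the 12 fits that left out a mouse, with log2 fold changes from −1.36 to −0.77 over the 12 and adjusted P up to 0.140, with that block (adjusted P = 0.0924) and with the marker scaling (−0.56, adjusted P = 0.0742). By the mean over the 12 mice, the most abundant genes of the list per length were Pth1r, the parathyroid hormone receptor, with 102 FPKM, and Slc9a3r1, encoding the scaffold NHERF1 that binds both NaPi-IIa and NHE3, with 93.1 FPKM. This order did not hold in each group, as Slc9a3r1 (147 FPKM) stood above Pth1r (139.5 FPKM) in Ctrl, and Ezr (55.7 FPKM) above Slc9a3r1 (44.5 FPKM) in YHY. Slc9a3r1 was lower in Model than in Ctrl (−0.75, adjusted P = 0.0108), in YHY than in Model (−0.98, adjusted P = 0.00798) and in YHY than in Ctrl (−1.72, adjusted P = 9.9e-06). Pth1r was lower in YHY than in Model (−0.89, adjusted P = 0.0154) and in YHY than in Ctrl (−1.27, adjusted P = 0.000189), and its difference between Model and Ctrl was −0.38 (adjusted P = 0.178), called with library size alone (−0.795, adjusted P = 0.00366) and with only the 8 mice compared (−0.40, adjusted P = 0.0468), and 0.23 with the marker scaling. With TMM, Pdzk1 and Slc9a3r1 were thus called lower in all 3 comparisons, in which Slc34a1 itself was not called. Scaffolds of the list did not all share this, as Slc9a3r2 and Pdzd3 show, which were chosen after their values were seen. Slc9a3r2 averaged 43.3, 57.9 and 58.6 CPM in Ctrl, Model and YHY and was called higher in YHY than in Ctrl (0.44, adjusted P = 0.0335). Pdzd3 averaged 64.7, 36.4 and 31.6 CPM and was lower in both db/db groups than in Ctrl but not called in YHY against Model (−0.21, adjusted P = 0.587). With scaling to the proximal tubule markers Slc9a3r1 was not called in Model against Ctrl (−0.125, adjusted P = 0.625), neither Slc9a3r1 nor Pdzk1 was called in YHY against Model (−0.46 and −0.34), and both Pth1r calls were lost (−0.39, adjusted P = 0.143, and −0.16, adjusted P = 0.482).

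Of 25 genes of proximal acid-base handling, Model against Ctrl gave 3 higher and 9 lower (median log2 fold change −0.24), YHY against Model 2 higher and 3 lower (−0.19), and YHY against Ctrl 4 higher and 11 lower (−0.405), and scaling to the proximal tubule markers turned these medians to 0.30, 0.30 and 0.71. The calls with that scaling were 5 higher and 2 lower, 5 and 1, and 14 and 1 in the same order. Slc9a8, another sodium-proton exchanger, was at 183, 164, 171 and 123 CPM in Ctrl 1 to 4, 26.8, 38.6, 42.7 and 45.3 CPM in Model 1 to 4, and 23.5, 25.7, 29.5 and 31.5 CPM in YHY 1 to 4. It was 4.18-fold lower in Model (log2 fold change −2.06, adjusted P = 2.29e-06) and 5.81-fold lower in YHY (−2.54, adjusted P = 1.23e-07) than in Ctrl, without overlap, whereas Slc9a3 was not lower in either. Car15, a carbonic anhydrase at a mean of 0.881 FPKM over the 12 mice, was higher in Model than in Ctrl (2.10, adjusted P = 0.0125), and its difference between YHY and Model was −1.57 (adjusted P = 0.0956), called by DESeq2, with no filter and with replicate number as a block (adjusted P from 0.0266 to 0.0443). Slc4a7, a sodium-bicarbonate cotransporter, was higher in YHY than in Model (1.13, adjusted P = 0.00393), and Slc4a5, another of its family, differed by 1.202 between YHY and Ctrl (adjusted P = 0.0743), and by 2.08 without Ctrl 4 (adjusted P = 0.00248), and was also called with upper-quartile scaling, with the marker scaling, with that block and with at least 10 counts in every sample (adjusted P up to 0.0499). The most abundant genes per length were Pck1, the enzyme of glucose production that also serves ammonia production, at 612 FPKM, and Car2, the cytosolic carbonic anhydrase, at 132 FPKM. Pck1 was higher in Model than in Ctrl (0.92, adjusted P = 0.0174), a call lost without Ctrl 1 (0.805), Ctrl 3 (0.86), Ctrl 4 (0.755) or Model 1 (0.705), and with library size alone (0.53). Its difference between YHY and Model was −0.85 (adjusted P = 0.0565), and was called by DESeq2, with no filter, with library size alone and without Ctrl 2, Ctrl 4, Model 4 or YHY 4 (adjusted P from 0.0125 to 0.0478). Between YHY and Ctrl the difference was 0.07 (adjusted P = 0.862), and it was called higher with scaling to the proximal tubule markers (1.19, adjusted P = 1.83e-05). Car2 differed by −0.06, −0.28 and −0.34 in Model against Ctrl, YHY against Model and YHY against Ctrl, and was called in none of them with TMM and all 12 mice, whereas Car4 was lower in both db/db groups than in Ctrl. The last Car2 difference was called lower without YHY 3 (−0.67, adjusted P = 0.0424) and higher with scaling to the proximal tubule markers (0.92, adjusted P = 0.0213).

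Of 14 genes of the sodium pump, potassium channels, tight junctions and other aquaporins, Model against Ctrl gave 0 higher and 11 lower (median log2 fold change −1.07), YHY against Model 2 higher and 4 lower (−0.15), and YHY against Ctrl 1 higher and 11 lower (−1.32), and with scaling to the proximal tubule markers the medians were −0.48, 0.44 and −0.12, the second of them changed in sign. The calls with that scaling were 2 higher and 5 lower, 3 and 2, and 2 and 2 in the same order. Per length, Fxyd2, a regulatory subunit of the pump, was the most abundant of the list at 549 FPKM. Fxyd2 differed by 0.13 between Model and Ctrl (adjusted P = 0.649) and was lower in YHY than in Model (−0.66, adjusted P = 0.0476) and in YHY than in Ctrl (−0.53, adjusted P = 0.0452). These 2 Fxyd2 calls were lost in 10 and 9 of the 12 fits that left out a mouse, with log2 fold changes from −0.82 to −0.53 and from −0.69 to −0.40, and with scaling to the proximal tubule markers the first was −0.05 and the second was reversed and called higher (0.695, adjusted P = 0.0152). Cldn2, the claudin that lets sodium and water pass between proximal cells, had the lowest value of the list in YHY against Ctrl (−2.84, adjusted P = 4.32e-06). Tjp1, a tight junction scaffold, had the highest (0.83, adjusted P = 0.000374), a call lost with library size alone (0.41, adjusted P = 0.136). The water channel Aqp4 was lowest in Model against Ctrl (−2.43, adjusted P = 0.00198) and had the highest value in YHY against Model (1.21, adjusted P = 0.130), where YHY 1 stood at 161 CPM and the other YHY mice at 21.8 to 53.9 CPM. Leaving out each mouse in turn moved the latter value between 0.235 and 1.50, with a call without YHY 4 (adjusted P = 0.044), and it was also called with no filter (adjusted P = 0.008) and with scaling to the proximal tubule markers (2.00, adjusted P = 0.0231). Aqp8 had a value of 0.93 in Model against Ctrl (adjusted P = 0.249) and was lower in YHY than in Model (−2.81, adjusted P = 0.0149, and −2.49 without Model 1, adjusted P = 0.0501) at no more than 4.28 CPM in any mouse. The Aqp8 value for YHY against Model ranged from −3.53 to −2.45 leaving out each mouse in turn.

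**Figure D5:**
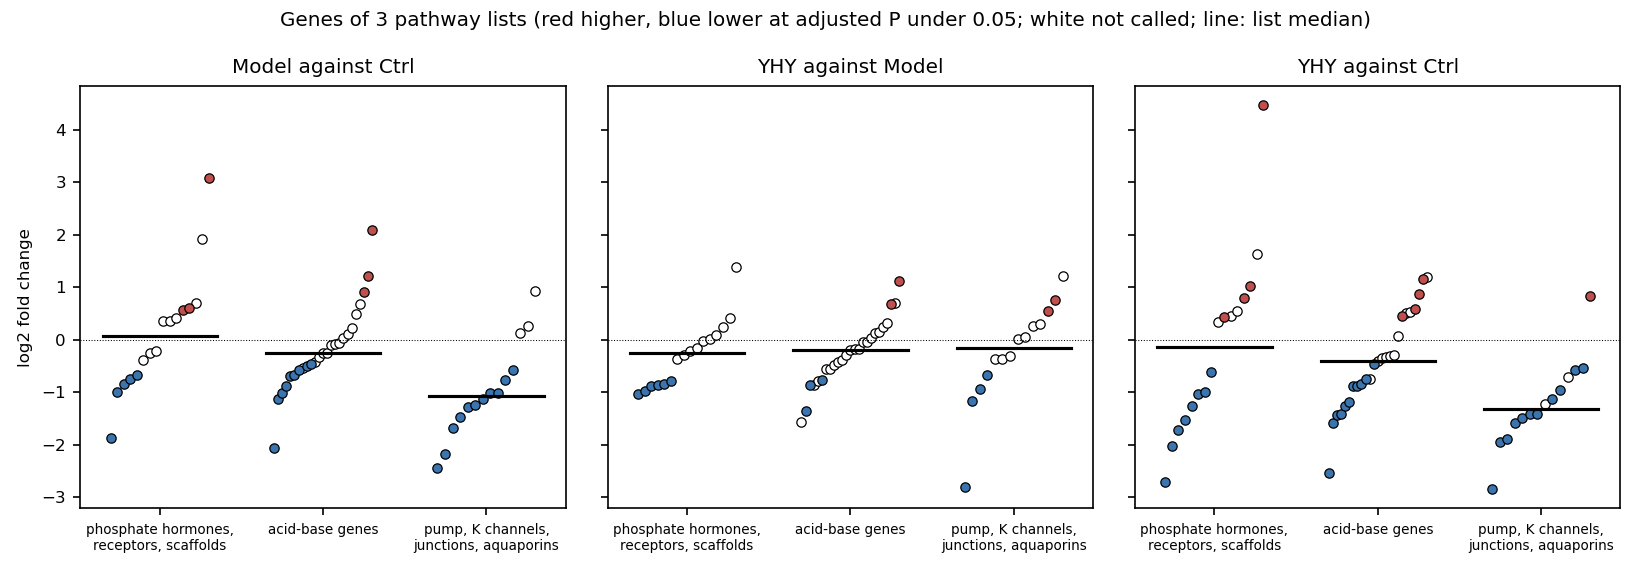
Log2 fold changes of the genes of the 3 pathway lists in the 3 comparisons (points, coloured where the adjusted P was under 0.05), with the median of each list (lines). With TMM, 11 of 14 genes in the pump, channel and junction list are lower in Model than in Ctrl, and its median is −1.07.

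The genes most like 3 of the members over the 12 mice were found among 12853 genes by the root mean square difference of mean-centred log2 CPM. For Slc34a1, whose own root mean square was 0.43, they were Glb1l at 0.17, Ralgapa2 at 0.21 and Nek6 at 0.22. Slc9a3, with 0.32 of its own, was followed by Trafd1 at 0.12, Anapc1 at 0.13 and Ddx42 at 0.14. For Slc20a1, with 0.68 of its own, they were Dennd3 at 0.21, Entpd8 at 0.21 and Il17rb at 0.23. None of the 10 members or of the genes in the 3 pathway lists was among these 9.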

How the data were processed

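The authors deposited raw read counts per gene and mouse, with gene lengths and coordinates; per the labels their processing notes list FastQC, Trimmomatic, HISAT2, SAMtools, featureCounts, DESeq2 and R without roles, and GRCm39 and mm39 as builds. Their comparison tables hold normalized values of single mice, in 12 columns in all, with fold changes and p-values. None of these were used beyond the mouse names in the headers, which name 9 mice.

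From the counts, CPM were computed with TMM-scaled library sizes and FPKM with the deposited gene lengths. All genes passing filterByExpr were tested in a single fit of the 3 groups with edgeR 4.0.16 in R 4.3.3 (glmQLFit, glmQLFTest, two-sided, Benjamini-Hochberg). A prior count of 2 was used for fitted fold changes. Ratios were compared by exact permutation. Besides the members, the genes named are the lowest, the highest and the 2 most abundant of each pathway list, the genes most like 3 members (mean count at least 50, pseudocount 0.5 CPM), the genes overlapping a member and the neighbours of Slc17a3. Not every gene that the rule selects is reported. Slc9a3r2, Pdzd3 and Ezr were added after their values were seen. The members and lists were chosen with earlier results of these data known. Alternatives used DESeq2 1.42.0. Figures were drawn with matplotlib 3.10.9 under Python 3.11.15, with pandas 2.3.3 and numpy 2.4.6.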

Additional observations from a re-analysis of the deposited data

Results flagged for a closer look

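Among 51 groups of 4 mice, 10 genes and 7 ratios in 3 groups each, 2 held a mouse far from the others by Dixon's test at 0.829. Chance flags about 1 in 20 groups. Slc9a3 stood at 110 CPM in Model 4, where the other 3 had 83.4 to 85.7 CPM (Dixon's ratio 0.915). The log2 ratio of Slc34a1 to Slc34a3 was 4.76 in Model 1, against 5.42 to 5.55 in the other Model mice (0.835). Model 1 also had the lowest mitochondrial share of the Model mice, 41.2%, and its part in this ratio was not tested.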

How the results depend on the processing

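Of the fits of single members under alternative settings, 589 kept their direction and their side of the threshold, 22 lost and 26 gained a call, and 23 changed sign.

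The count of members called in Model against Ctrl was 6 and ranged from 4 (library size alone) to 7 (scaling to proximal tubule markers), and from 4 to 7 leaving out each mouse in turn, where all genes gave 2507 to 3624 higher and 2596 to 3711 lower. With the replicate block it was 6. In YHY against Ctrl it was 7, 6 with library size alone, 8 with the marker scaling, 7 with the replicate block and 7 without any single mouse (all genes 3711 to 4493 higher and 3974 to 4567 lower). In YHY against Model it was 0, also with the replicate block, upper-quartile scaling, library size alone and only the 8 mice compared. It was 3 with DESeq2 (1 higher and 2 lower, against 1434 and 1689 of 30071 genes), 1 without mitochondrial transcripts (higher, against 1083 of 16952), 3 with the marker scaling (all higher, against 3969 of 17431), 2 with no filter (lower, against 1387 of 30103), 1 with at least 10 counts in every sample (higher, against 1117 of 13623), 4 at the limits in the methods, 3 in the 9 mice named in the table headers (lower, against 1273 of 17414; chosen after seeing the data), and 0 to 3 leaving out each mouse in turn (all genes 419 to 1045 higher and 727 to 1678 lower).

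The residuals gave no clear sign that replicate numbers pair the mice, though they cannot exclude it. Of 12 pairs with the same number 3 had residuals correlated above 0.1 (r from −0.226 to 0.193), and 4 of 12 mice were most alike with a mouse of their own number.

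Signs changed as follows (log2). With library size alone, Slc34a1 (−0.357) and Slc9a3 (−0.163) in Model against Ctrl and Slc34a3 (−0.277) in YHY against Ctrl. With the marker scaling, Slc34a1 (0.255), Slc20a2 (0.0491), Slc17a3 (0.0115) and Car4 (0.257) in YHY against Model, and Slc34a1 (0.953) and Slc20a2 (1.1) in YHY against Ctrl. Slc20a2 in YHY against Ctrl also did so with upper-quartile scaling (0.111), without mitochondrial transcripts (0.00235) and with at least 10 counts in every sample (0.0487), and Slc34a3 in the 9 mice (−0.283). Leaving out 1 mouse at a time, Slc34a1 ranged from −0.135 to 0.244 in Model against Ctrl, −0.444 to 0.0161 in YHY against Model and −0.386 to 0.0724 in YHY against Ctrl, where Slc34a3 ranged from −0.445 to 0.419 and Slc20a2 from −0.1 to 0.115. Slc17a1 in YHY against Model ranged from −0.101 to 0.376. Of the ratios in YHY against Ctrl, Slc34a1 to Slc20a2 ranged from −0.399 to 0.0471, Slc34a1 to Slc34a3 from −1.11 to 0.131, Car4 to Slc4a4 from −0.455 to 0.17 and Slc17a1 to Slc17a3 from −0.19 to 0.0913. None of the reversed values was called, other than those of Slc34a1 (adjusted P = 0.00022) and Slc20a2 (adjusted P = 0.00104) with the marker scaling. The cause was not tested.

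Over all genes, library size alone gave 1547 higher and 5667 lower in Model against Ctrl, against 3412 and 3219 with TMM. With 4 mice a group, differences the size of those of Slc34a1 could not be told from the spread between mice. The alternative without length scaling changes levels only.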
